A study of Mus musculus with 24 samples.

Results

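The transcripts described here are those of 10 genes of the interleukin 6 (IL6) cytokine pathway. They comprise the secreted ligands Il6, Lif, Il11 and Clcf1, the receptor chains Il6st, Il6ra, Lifr and Osmr, the transcription factor Stat3 and the inhibitor Socs3. The genes were chosen by name as the rows of the deposited expression table whose Ensembl identifiers carry these symbols, and all 10 were found among the 53801 listed genes. The cells were wild-type pancreatic stellate cells (PSC) of C57BL/6J mice, the fibroblast-like cells of the pancreas that are a source of cancer-associated fibroblasts, isolated from pooled pancreata and used at low passage. They were grown without contact with KPC cells, a pancreatic cancer line from a single mouse in which p48-Cre switches on mutant cancer genes. In standard co-culture (distant paracrine) the PSC sat on a porous membrane and the KPC cells below it on the floor of the well. Inverse co-culture (close paracrine) placed the KPC cells on the underside of the same membrane. Each model was sampled at 24 h and 72 h together with mono-cultured control PSC, which gave 8 groups of 3 libraries. Time was counted from the transfer of the insert in the standard model but from 24 h after the PSC were seeded above the KPC cells in the inverse model, so that inverse cultures had shared medium for about 24 h longer at each sampling. Libraries were made from 450 ng of RNA in the standard and 120 ng in the inverse model, so that effects of RNA amount, of length of exposure and of model cannot be told apart.

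Cytokines of the IL6 family bind a receptor chain of their own and then share the signalling chain gp130, encoded by Il6st. Janus kinases bound to gp130 phosphorylate STAT3, which enters the nucleus and activates target genes, among them Socs3, whose product shuts the receptor down. In pancreatic cancer, fibroblasts that secrete IL6, LIF and IL11 are called inflammatory cancer-associated fibroblasts (iCAF), and tumour-derived interleukin 1 acting through NF-kB and LIF is known to induce this state.

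Promoter sequences of the 3 ligand genes that differed between co-cultured and control PSC at 72 h in the inverse model, Il6, Lif and Il11, are shown with that of Socs3, a textbook target of STAT3, to display the binding motifs in each. The 250 bases before the transcription start were read from RefSeq on GRCm38.p6, where 9 of the 10 genes had an entry. Each is written 5′ to 3′ on the strand of the gene, and capitals mark the motifs found. The promoter of Il6 spans chr5:30012864-30013113 on the plus strand, that of Lif chr11:4257318-4257567 on the plus strand, that of the second listed start of Il11 chr7:4778142-4778391 on the minus strand and that of Socs3 chr11:117969367-117969616 on the minus strand.
Il6: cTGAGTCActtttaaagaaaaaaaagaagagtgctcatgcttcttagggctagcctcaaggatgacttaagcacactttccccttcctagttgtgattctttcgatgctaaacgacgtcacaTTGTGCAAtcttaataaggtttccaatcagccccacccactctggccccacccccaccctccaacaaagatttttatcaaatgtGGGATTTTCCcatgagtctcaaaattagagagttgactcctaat
Lif: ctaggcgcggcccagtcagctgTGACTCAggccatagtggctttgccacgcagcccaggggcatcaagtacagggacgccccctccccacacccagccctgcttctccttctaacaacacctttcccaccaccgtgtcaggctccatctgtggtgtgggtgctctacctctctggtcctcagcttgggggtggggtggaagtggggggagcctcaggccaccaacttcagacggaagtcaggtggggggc
Il11: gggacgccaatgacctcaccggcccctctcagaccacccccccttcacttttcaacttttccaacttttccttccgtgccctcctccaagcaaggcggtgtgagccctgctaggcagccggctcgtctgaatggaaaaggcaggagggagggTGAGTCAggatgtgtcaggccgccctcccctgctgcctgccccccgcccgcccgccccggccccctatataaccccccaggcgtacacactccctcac
Socs3: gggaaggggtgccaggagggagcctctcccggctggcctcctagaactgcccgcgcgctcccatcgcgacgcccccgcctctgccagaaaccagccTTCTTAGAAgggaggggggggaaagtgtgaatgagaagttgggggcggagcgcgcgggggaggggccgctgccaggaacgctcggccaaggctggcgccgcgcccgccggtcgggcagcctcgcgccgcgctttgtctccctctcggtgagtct

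In these windows 6 motifs were searched on both strands: TTCNNNGAA (bound by STAT factors), TGACTCA (AP-1), TGACGTCA (CRE), TTGCNNAA (C/EBP), TATAAA and the consensus motif of NF-kB. The AP-1 letters stood 249 bases before the start of Il6, 228 before that of Lif and 98 before that of Il11, and 4.46% of all 32851 promoter windows of this length hold them. Il6 also held a C/EBP match at 128 bases (9.56% of all windows) and an NF-kB match at 44 bases (0.356% of all windows). A STAT match was found only for Socs3, at 154 bases, where 7.02% of all windows hold one. No match stood in the windows of Il6st, Il6ra, Lifr, Osmr and Stat3 or in that of the first listed start of Il11. The letters TGACGTCA (1.55% of windows) and TATAAA (12.4%) were found in none of the windows of these genes. Such matches describe the letters only.

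Levels are given as FPKM, fragments per kilobase of transcript, scaled to the sequencing depth of the library. The libraries held 15932737 to 24798774 counted fragments, as recovered from the whole-fragment steps of the FPKM values. Fibroblast genes were high in all libraries, with Col1a1 at 4918 to 10708 and Vim at 706 to 1994 FPKM, whereas the transcript of Gfap, a marker of quiescent stellate cells, did not exceed 0.237 FPKM. For GFAP protein, the study reported positive staining of its PSC. The 4 libraries of standard replicate 1 stood apart from replicates 2 and 3 of that model, with Il6st at 152 to 245 against 360 to 507 FPKM and Lif at 4.69 to 8.59 against 10.3 to 38.1 FPKM. Macrophage markers (8 genes) summed to 353 to 1161 FPKM in the 4 libraries of standard replicate 2 and to 23.4 to 223 FPKM in the other 20 libraries. Keratins and other markers of epithelial and KPC cells (7 genes) summed to 43 FPKM in replicate 2 of the inverse co-culture at 24 h, with Krt8 at 15.2 FPKM, and to at most 7.78 FPKM elsewhere. Krt7, Krt18, Krt19 and Cdh1 (0.948 FPKM) also had their highest value in that library, whereas Epcam and Cldn4 stayed at or under 0.123 FPKM throughout. In the standard model, the deviations of same-numbered libraries from their group means were correlated (0.478 to 0.823), so values with the replicate number as a block are given there as well. With bulk RNA, fewer cells of a type and less RNA per cell cannot be told apart.

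The 10 transcripts covered a wide range of levels. In the 12 control libraries, Il6st had the highest median with 371 FPKM, followed by Stat3 (209), Socs3 (94.0), Osmr (88.7), Il6 (31.4), Lifr (12.5), Lif (7.24), Il6ra (2.70), Il11 (0.869) and Clcf1 (0.308). The shared receptor chain and the transcription factor were therefore abundant in control PSC, whereas Il6ra, the chain specific for IL6, was low. The FPKM values rest on the mean length of the annotated transcripts. When the longest transcript was taken as the length, the medians of Stat3 and Osmr were 58.3 and 51.2 and that of Socs3 was 40.4, so the order of those 3 depends on the length used. Behind these values stood 9319 to 32308 fragments per library for Il6st, 190 to 8128 for Il6 and 173 to 520 for Il6ra, but 6 to 135 for Il11 and 0 to 23 for Clcf1. For Il11 and Clcf1 the fragments were computed with an inferred gene length. When the 8 groups were ordered by their means, no neighbours in the order were separated by the ranges of their 3 libraries for any of the 10 genes.

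**Figure D1:**
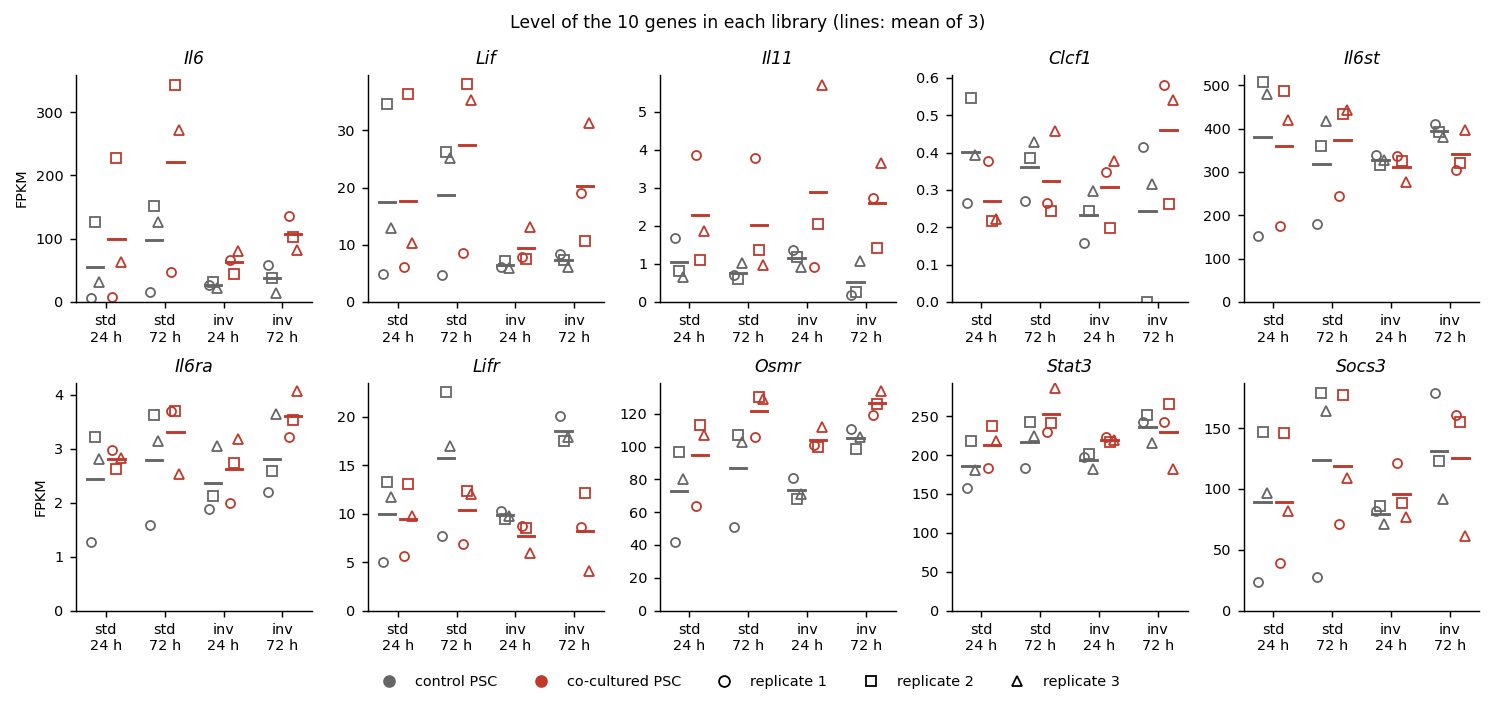
FPKM of the 10 genes (vertical axes, linear, each with its own scale) in the 4 settings (std, standard model; inv, inverse model), with control PSC in grey, co-cultured PSC in red, symbols for replicates and horizontal lines for the mean of 3 libraries. Il6 and Lif of the inverse model at 72 h lie higher in all 3 co-culture libraries than in all 3 controls and Lifr lies lower, while the standard libraries of replicate 1 (circles) lie low for Il6, Lif, Il6st and Socs3.

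The effect of close paracrine co-culture on the ligands was asked first at 72 h. Il6, Lif and Il11 were all higher in co-cultured PSC, by 3.25-fold, 2.47-fold and 3.14-fold on the scale of FPKM + 0.5. Of the 9 members tested, these 3 were called higher and none lower, beside 12.8% of 13066 tested genes called in either direction, 3.27% higher and 9.57% lower. Clcf1 was under the filter of more than 1 FPKM in at least 3 libraries and was not tested in any comparison.

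Il6, the ligand that gives the family its name, stood at 136, 102 and 82.6 FPKM in the 3 co-culture libraries of the inverse model at 72 h and at 58.4, 38.1 and 14.4 FPKM in the controls. The groups did not overlap, and the control libraries differed 4.06-fold among themselves. The log2 change was 1.70 (SE 0.45, n = 3 per group, limma adjusted p = 0.0482). Lif, which signals through Lifr and gp130, stood at 19.1, 10.6 and 31.3 FPKM against 8.36, 7.27 and 6.18 FPKM (log2 change 1.31, SE 0.34, limma adjusted p = 0.0458). Its spread lay in the co-culture libraries, of which replicate 3 was highest. Il11, a ligand known from fibrosis, stood at 2.72, 1.41 and 3.64 FPKM against 0.177, 0.271 and 1.08 FPKM (log2 change 1.65, SE 0.45, limma adjusted p = 0.0498). The lowest of these Il11 values rested on few fragments. Clcf1, a ligand of the family known from neurons and B cells, was at 0.580, 0.261 and 0.541 FPKM against 0.415, 0 and 0.317 FPKM, and its ranges overlapped.

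All 3 ligand calls lay close to the threshold. Leaving out 1 library ended the call of Il6 in 5 of 6 cases (it held without control replicate 1), and that of Lif and of Il11 in 5 of 6 cases each (both held without co-culture replicate 2). The log2 change of Il6 then ran from 1.14 (without control replicate 3) to 2.13 and that of Lif from 0.94 (without co-culture replicate 3) to 1.69, all positive. The median change of all genes tested was -0.16 at this time.

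None of the 4 receptor chains passed the test in the inverse model at 72 h. Lifr, the receptor chain of LIF, stood at 8.60, 12.1 and 4.03 FPKM in co-cultured PSC and at 20.1, 17.5 and 17.9 FPKM in controls, without overlap. Its log2 change was -1.24 (SE 0.34) and its limma adjusted p of 0.0503 lay just outside the threshold. Osmr, the chain through which oncostatin M signals, was at 119, 126 and 134 FPKM against 111, 98.6 and 106 FPKM (log2 change 0.27, SE 0.095, limma adjusted p = 0.1). Il6st was at 305, 321 and 397 FPKM against 411, 393 and 381 FPKM, with 1 co-culture library inside the control range (log2 change -0.22, SE 0.12, limma adjusted p = 0.258). Il6ra was at 3.22, 3.53 and 4.07 FPKM against 2.19, 2.58 and 3.64 FPKM and overlapped (log2 change 0.33, SE 0.23, limma adjusted p = 0.351). Without overlap between the groups, Il6, Lif, Il11 and Osmr were higher (9.53% of all genes tested) and Lifr was lower (28.8%).

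Stat3 and Socs3, which act below the receptor, did not pass the test at 72 h. Stat3 was at 242, 266 and 182 FPKM in co-cultured PSC and at 243, 252 and 215 FPKM in controls (log2 change -0.06, 95% interval -0.41 to 0.30). Socs3 was at 161, 155 and 61.1 FPKM against 179, 123 and 91.5 FPKM (log2 change -0.13, 95% interval -1.04 to 0.78). In both, co-culture replicate 3 had the lowest value. Under scaling by the median of gene ratios the signs of both changes turned (0.11 and 0.03).

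Genes listed as markers of other cells also moved in this comparison. Of the 5 adipocyte markers, 4 were tested and all 4 were called lower in co-cultured PSC (median log2 change -3.73), with sums of 22.7 to 94 FPKM against 394 to 829 FPKM in controls. Of the 8 macrophage markers, 6 were tested and 4 were called lower (median -1.46), with sums of 49.8 to 76.7 against 118 to 223 FPKM. The macrophage markers Ptprc and Itgam and the adipocyte marker Lep were not tested, being mostly under 1 FPKM. Of the 7 epithelial markers only Krt19 was tested and it was called higher (log2 change 2.03), with sums of 1.5 to 7.78 against 0 to 0.338 FPKM. In every library of the study, Epcam and Cldn4 were at or under 0.123 FPKM and Cdh1 at or under 0.948 FPKM. Of the 5 acinar markers only Cela1 was tested, and it was called lower (log2 change -0.56), with sums of 10.7 to 11.1 against 15.3 to 18.1 FPKM. These sums were almost all Cela1, because Cpa1, Prss2, Pnlip and Ctrb1 did not exceed 0.965 FPKM in any library, so they do not show acinar cells. The adipocyte markers Plin1 and Fabp4 were above 1 FPKM in all 24 libraries, and the study saw lipid droplets in its PSC by Oil red O staining. Among the 3 co-culture libraries, replicate 3 had the highest epithelial sum (7.78 FPKM) and the lowest adipocyte and macrophage sums (22.7 and 49.8 FPKM). The same library held the highest co-culture values of Lif and Il11 and the lowest of Il6 and Lifr. Whether these marker transcripts came from other cells or from the PSC was not tested. Their part in the changes of Il6, Lif, Il11 and Lifr was not tested either.

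At 24 h in the inverse model, Il6 and Osmr were higher in co-cultured PSC. These were 2 of the 9 members tested, beside 2.47% of 12827 tested genes called, 1.08% higher and 1.39% lower. Il6 stood at 66.2, 43.4 and 79.8 FPKM in co-culture and at 26.6, 31.8 and 22 FPKM in controls (2.29-fold, log2 change 1.19, SE 0.22, limma adjusted p = 0.0311). Osmr stood at 101, 99.7 and 112 FPKM against 81.0, 68.1 and 70.9 FPKM (1.42-fold, log2 change 0.51, SE 0.11, limma adjusted p = 0.0459). Neither gene overlapped between the groups. The call of Il6 held without co-culture replicate 2 and without co-culture replicate 3 and was lost when any other single library was left out, and the call of Osmr was lost in all 6 cases. Epithelial and KPC markers summed to 1.84, 43.0 and 6.55 FPKM in co-culture replicates 1, 2 and 3, against 0.301 to 0.37 FPKM in controls. Replicate 2, with the most keratin signal, held the lowest of the 3 co-culture values of both Il6 and Osmr. The part of these marker transcripts in the changes of Il6 and Osmr was not tested. Of the adipocyte markers 4 and of the macrophage markers 5 were tested at this time and none was called. All of them had changes below 0, with median log2 changes of -0.583 and -0.537, beside -0.06 for all genes tested. Adipocyte sums were 79.7 to 182 FPKM in co-culture against 153 to 235 FPKM in controls. Macrophage sums were 23.4 to 78.1 against 66.2 to 80 FPKM.

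The other members were not called at 24 h. Lif was at 7.84, 7.47 and 13.1 FPKM against 6.07, 7.20 and 5.93 FPKM, without overlap but with a limma adjusted p of 0.345 (log2 change 0.49, SE 0.22). Il11 ranged from 0.909 to 5.70 FPKM in co-culture and from 0.924 to 1.37 FPKM in controls, its highest value being that of co-culture replicate 3. Lifr was at 8.67, 8.47 and 5.97 FPKM against 10.3, 9.40 and 9.77 FPKM (log2 change -0.35, SE 0.17, limma adjusted p = 0.392). Stat3 was at 217 to 223 FPKM against 182 to 202 FPKM (log2 change 0.18, SE 0.09, limma adjusted p = 0.401). Il6, Lif, Osmr and Stat3 were thus higher without overlap (7.38% of all genes tested) and Lifr lower (13.8%). Il6st, Il6ra and Socs3 overlapped between the groups, with log2 changes of -0.07, 0.14 and 0.24.

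**Figure D2:**
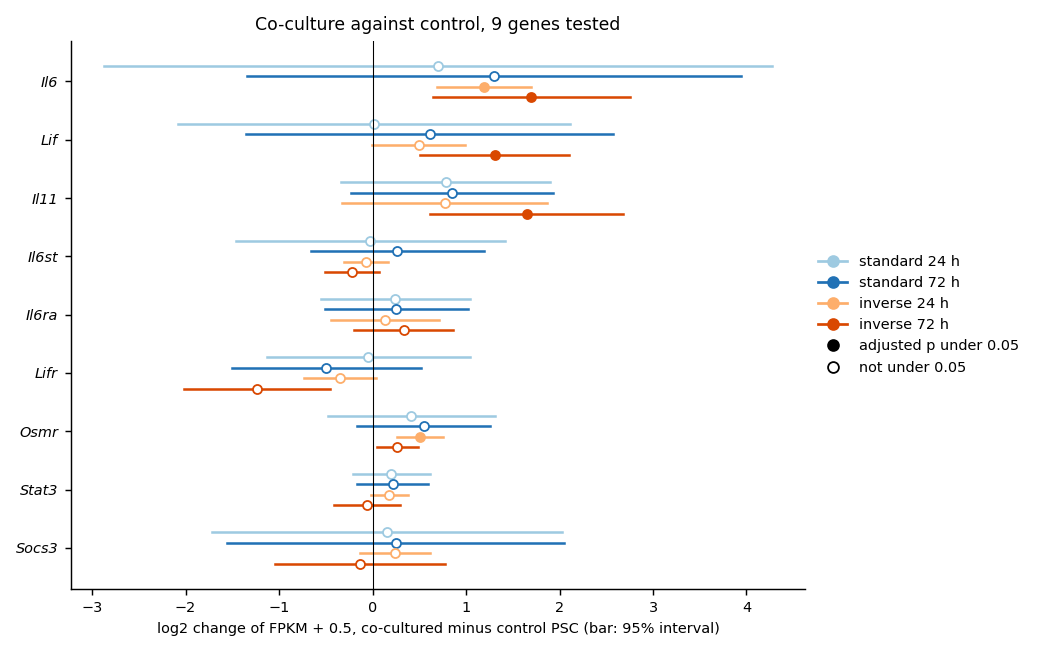
Log2 change of FPKM + 0.5 (horizontal axis, co-cultured minus control PSC) with 95% intervals for the 9 tested members (rows) in the 4 comparisons (colours), with filled points where the adjusted p was under 0.05. The filled points are Il6 and Osmr in the inverse model at 24 h and Il6, Lif and Il11 in the inverse model at 72 h, and the intervals of the standard model are the wider ones for Il6, Lif, Il6st and Socs3.

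In standard co-culture, the distant paracrine setting, no member was called at 24 h or at 72 h, where 0% of 12859 and 0% of 12863 tested genes were called. With the replicate number as a block, 1.22% of genes were called at 24 h and 0.00777% at 72 h, and again no member was among them. At an unadjusted p under 0.05 without the block, 0 of the 9 tested members passed at either time, beside 2.89% of genes at 24 h and 6.22% at 72 h, and limma-voom on the recovered fragments called 0 members at both. With DESeq2, the study itself reported differentially expressed genes in this model at both times. The 0% therefore holds for the limma test on FPKM without the block.

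Il6 of the standard model differed more between replicate numbers than between conditions. At 72 h its level was 46.8, 343 and 272 FPKM in co-culture and 14.9, 151 and 127 FPKM in controls, which were ratios of 3.14, 2.27 and 2.14 between same-numbered libraries. At 24 h the levels were 7.93, 227 and 62.7 FPKM against 6.56, 127 and 31.0 FPKM, with ratios of 1.21, 1.79 and 2.02. All 3 pairs were thus higher in co-culture at both times, as were 17.5% of all genes tested at 24 h and 10% at 72 h. The log2 change was 1.30 at 72 h with an SE of 1.10 without and 0.14 with the block (limma adjusted p = 0.869 and 0.15). At 24 h it was 0.70 with an SE of 1.47 without and 0.15 with the block (limma adjusted p = 1 and 0.0899). Left out together, the pair of replicate 1 moved it to 1.14 at 72 h and 0.92 at 24 h.

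Among the other members of the standard model, Osmr was higher in all 3 pairs at 24 h (ratios 1.52, 1.17 and 1.34) and at 72 h (2.06, 1.22 and 1.25). With the block its log2 change was 0.41 at 24 h (SE 0.09, limma adjusted p = 0.1) and 0.55 at 72 h (SE 0.18, limma adjusted p = 0.417). Lif was higher in all 3 pairs at 72 h (ratios 1.83, 1.45 and 1.41) but not at 24 h (1.26, 1.05 and 0.794). Lifr was lower in all 3 pairs at 72 h (ratios 0.889, 0.547 and 0.710), as were 26% of all genes tested. Il6st was higher in all 3 pairs at 72 h (1.37, 1.20 and 1.06) and Stat3 at 24 h (183, 238 and 218 FPKM against 158, 218 and 181 FPKM). Il11 was higher in all 3 pairs at 24 h, at 3.87, 1.11 and 1.86 FPKM against 1.68, 0.814 and 0.644 FPKM, and in 2 of 3 at 72 h. The median log2 change of the 9 members was 0.20 at 24 h and 0.27 at 72 h, beside -0.01 and -0.09 for all genes tested. In the inverse model the median of the members was 0.24 at 24 h and 0.27 at 72 h, beside -0.06 and -0.16.

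**Figure D3:**
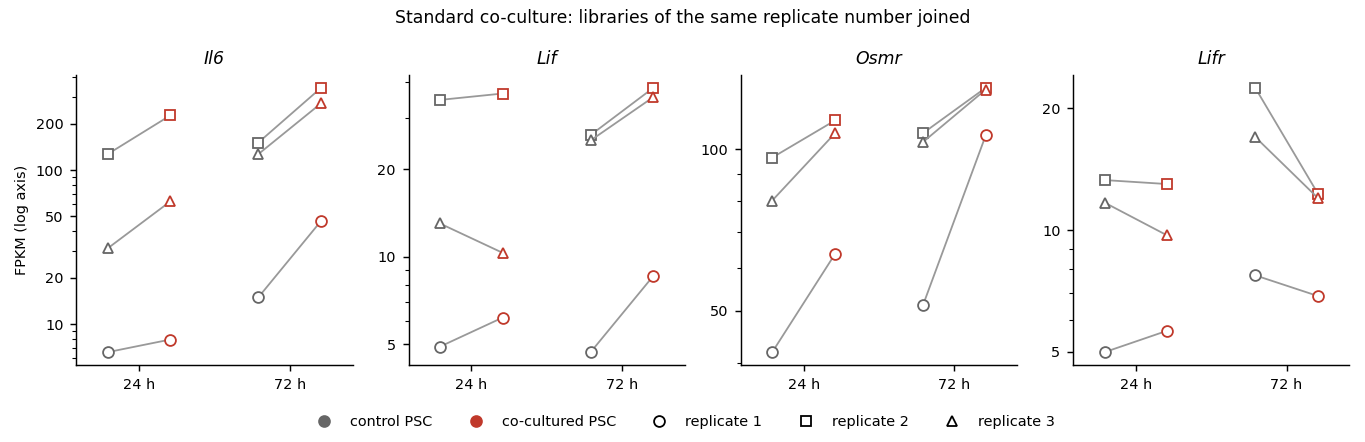
FPKM of Il6, Lif, Osmr and Lifr (vertical log axes) in the standard model, with lines that join control (grey) and co-cultured PSC (red) of the same replicate number at 24 h and 72 h. The lines of Il6 and Osmr rise in 3 of 3 pairs at both times, those of Lif rise and those of Lifr fall in 3 of 3 pairs at 72 h, and the circles of replicate 1 lie lowest in every panel and group.

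Whether the effect differed between the models was tested across all 24 libraries. At 72 h the change of Il6 in the inverse model exceeded that in the standard model by 0.40 (95% interval -2.86 to 3.66), that of Lif by 0.70 (-1.45 to 2.84) and that of Il11 by 0.80 (-0.71 to 2.31), while that of Lifr was lower by 0.74 (interval of the difference -1.95 to 0.47). At 24 h the difference was 0.49 for Il6 (-2.76 to 3.75) and 0.09 for Osmr (-0.71 to 0.90). No member was called at either time, where 0% of 14452 tested genes were called, 0 members had an unadjusted p under 0.05 (1.26% of genes at 24 h and 3.47% at 72 h) and limma-voom called 0 members. These intervals are from the fit without the replicate number, so they include the spread that same-numbered standard libraries share. With the block, the median SE over all genes fell from 0.335 to 0.27, and 0 genes were called at 24 h and 16 at 72 h, with 0 members among them. Whether the effect grew from 24 h to 72 h was tested within each model, and no member was called among 13694 (standard, 0% called) and 13722 (inverse, 0% called) tested genes. In the inverse model the difference was 0.51 for Il6 (-0.72 to 1.73), 0.88 for Il11 (-0.67 to 2.42) and -0.89 for Lifr (-1.76 to -0.01, limma adjusted p = 0.462). Lifr was the 1 member with an unadjusted p under 0.05 in that test (10.7% of genes), the standard model had 0 (1.03% of genes), and limma-voom called 0 members in both. With the block, 0 genes were called in both models. In the standard model the difference of Il6 between times was 0.6, with an SE of 2.019 without and 0.507 with the block.

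The level of several members also changed in control PSC of the inverse model between 24 h and 72 h. Lifr, Osmr and Il6st were higher at 72 h, 3 of 9 members tested, beside 19.2% of 13092 tested genes called, 10.2% higher and 9.05% lower. Lifr rose from 10.3, 9.40 and 9.77 FPKM to 20.1, 17.5 and 17.9 FPKM (1.84-fold, log2 change 0.88, SE 0.11, limma adjusted p = 0.00252). Osmr rose from 68.1 to 81.0 FPKM to between 98.6 and 111 FPKM (log2 change 0.52, SE 0.10, limma adjusted p = 0.00865). Il6st rose by 0.28 on the log2 scale (SE 0.08, limma adjusted p = 0.048), and its call was lost when any single library was left out. The calls of Lifr and Osmr held in all 6 such cases. In co-cultured PSC, Lifr was at 5.97 to 8.67 FPKM at 24 h and at 4.03 to 12.1 FPKM at 72 h. Adipocyte markers summed to 153 to 235 FPKM in these controls at 24 h and to 394 to 829 FPKM at 72 h, with 4 of 4 tested called higher. Macrophage markers summed to 66.2 to 80 FPKM at 24 h and to 118 to 223 FPKM at 72 h, with 4 of 6 tested called higher (median log2 change 1.08). Of the stellate cell and fibroblast markers, 4 of 7 tested were called lower at 72 h (Acta2, Des, Vim and Thy1, median -0.563 over the list). The part of these changes in those of Lifr, Osmr and Il6st was not tested.

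Stat3 and Socs3 of these controls were likewise higher at 72 h without overlap (22.8% of genes were higher and 16.9% lower in this way), with log2 changes of 0.29 (SE 0.09, limma adjusted p = 0.0643) and 0.67 (SE 0.21, limma adjusted p = 0.0563). Il6, Lif, Il11 and Il6ra overlapped between the times, with log2 changes of 0.26, 0.17, -0.81 and 0.21. Without control replicate 3 at 72 h, Il6 was called higher (log2 change 0.82, limma adjusted p = 0.04). In standard controls no member was called among 12963 tested genes, of which 0% were called (0.98% had an unadjusted p under 0.05, with 0 members among them, and limma-voom called 0 members), and Il11 was not tested there. With the replicate number as a block, 0 genes were called as well. The log2 change with the block was 0.612 for Lifr (SE 0.135, limma adjusted p = 0.371) and 0.265 for Osmr (SE 0.1, limma adjusted p = 0.524). Of the 8 members tested in standard controls, 7 had a change above 0 and 1, Il6st, below (-0.152, SE 0.148). Their median was 0.249, beside 0.00667 for all genes tested.

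The other genes of the pathway were taken from lists by role. Of the 5 other receptor chains, Il11ra2 was left out because it has several copies, 3 were tested and none was called in any co-culture comparison. Il11ra1, the receptor of IL11, was among them at 54.5 to 212 FPKM. Of 15 further restraints of JAK-STAT signalling, all 15 were tested and 1, Socs5, was called higher in the inverse model at 24 h (38.1 ± 6.25 against 20.9 ± 2.59 FPKM, SD, n = 3, log2 change 0.85, limma adjusted p = 0.026) and at 72 h (45.2 ± 4.56 against 20.8 ± 1.30 FPKM, 1.10, 0.00385). Over all genes tested, 1.08% were called higher at 24 h and 3.27% at 72 h, so 1 call in 15 says little about the list. In the standard model 0 of the 15 were called, whereas the study, with DESeq2, lists Socs5 there at 72 h. Without the co-culture library with the most keratin signal, 0 of the 15 were called at 24 h. For the lists, counts without other single libraries are not given here, so the loss cannot be tied to the keratin signal. Of the 2 proteases that cut receptors from the cell surface, Adam17 was called lower at 72 h in the inverse model (24.3 ± 2.23 against 43.2 ± 5.49 FPKM, log2 change -0.82, limma adjusted p = 0.00936) and Adam10 was not called. Over all genes tested, 9.57% were called lower in that comparison.

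Of 22 listed targets of STAT3, all 22 were tested. In the inverse model 4 were called higher and 0 lower at 24 h, namely Timp1, Serpina3n, Lcn2 and Bcl3, with a median log2 change of 0.31 over the list, beside 1.08% of all genes tested called higher, 1.39% called lower and a median of -0.06. At 72 h 3 were called higher (Timp1, Myc and Bcl3) and 2 lower (Lrg1 and Steap4), with a median of 0.20, beside 3.27% of all genes called higher, 9.57% called lower and a median of -0.16. The 2 targets called lower of 22 are thus about the share found over all genes. Timp1, an inhibitor of matrix metalloproteinases, rose from 295 ± 82.8 to 1214 ± 17.9 FPKM at 24 h (log2 change 2.08, limma adjusted p = 0.00341) and from 183 ± 59.5 to 706 ± 316 FPKM at 72 h (1.86, 0.023). Serpina3n, an acute-phase protease inhibitor, rose from 43.3 ± 4.10 to 119 ± 9.26 FPKM at 24 h (log2 change 1.45, limma adjusted p = 0.00318), and at 72 h it was at 145 ± 57.4 against 104 ± 24.7 FPKM. Steap4, a metalloreductase abundant in adipocytes, fell from 15 ± 5.10 to 2.99 ± 2.16 FPKM at 72 h (log2 change -2.31, limma adjusted p = 0.0212), in the comparison in which the adipocyte markers fell as well. Without the co-culture library with the most keratin signal, 3 targets were called higher at 24 h. In the standard model none was called without the block, and with it Timp1 (limma adjusted p = 0.00971) and Serpina3n (0.024) were called at 24 h. The study, with DESeq2, lists Timp1 as differentially expressed in standard co-culture at 72 h as well.

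**Figure D4:**
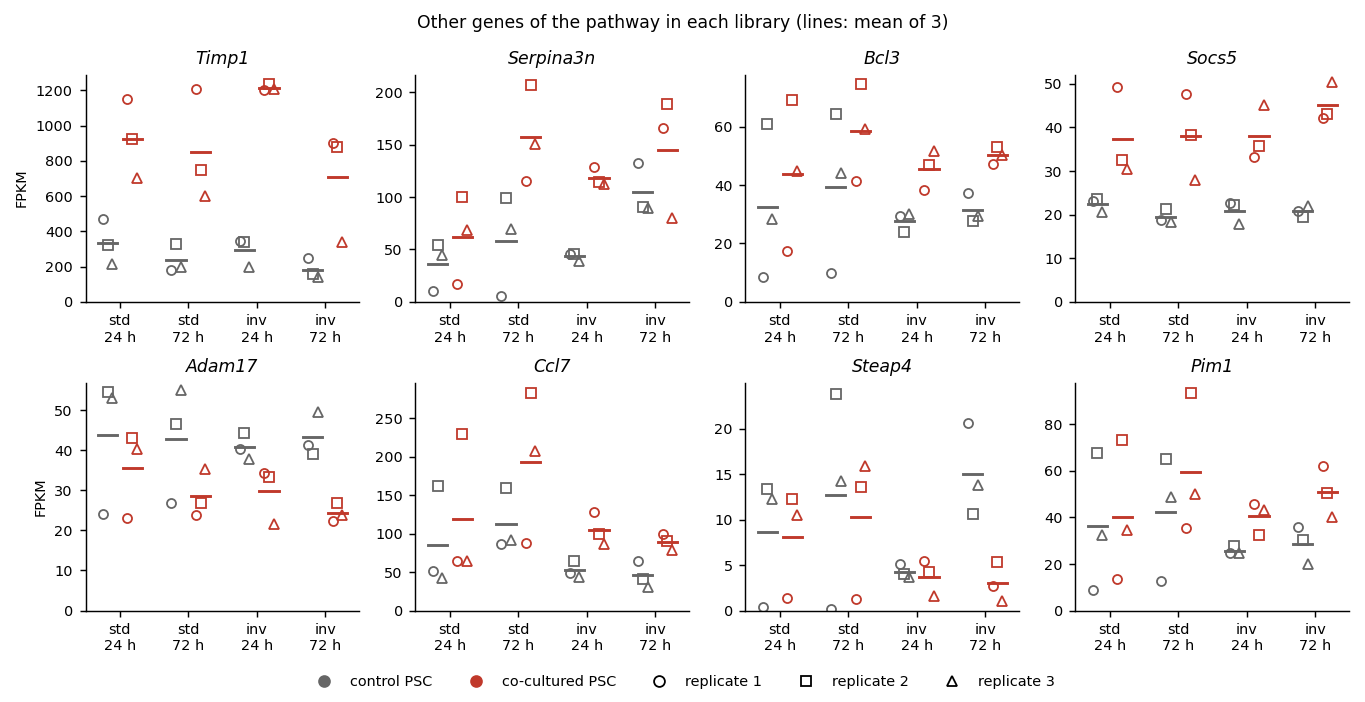
FPKM of 8 other genes of the pathway (vertical axes, linear, each with its own scale) by setting, with control PSC in grey, co-cultured PSC in red, symbols for replicates and lines for the mean of 3 libraries. Timp1, Socs5 and Ccl7 lie higher in every co-culture library of the inverse model than in the controls of the same time, and Adam17 lies lower, while Steap4 lies lower in its co-culture libraries at 72 h.

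Of 16 genes of IL1 and NF-kB signalling, 12 were tested at 24 h and 13 at 72 h in the inverse model and none was called. With the block, Il1rn and Il1r1 were called higher in the standard model at 24 h (limma adjusted p = 0.0293 and 0.0233), as was the iCAF marker Cxcl5 (0.0289). Of 15 other iCAF marker genes, 12 were tested in the inverse model at 24 h and 4 were called higher, namely Cxcl5, Ccl2, Ccl7 and Pdgfra, where 1.08% of all genes were called higher. Cxcl5, a neutrophil chemokine, stood at 26.2 ± 12.4 against 4.44 ± 2.06 FPKM (log2 change 2.4, limma adjusted p = 0.0308) and Ccl2, a monocyte chemokine, at 68.2 ± 23.5 against 21.4 ± 2.56 FPKM (1.59, 0.0159). Without the library with the most keratin signal this count was 1. Among the 10 genes themselves, leaving out any single library cut the 2 calls at 24 h to 0 or 1, so the drop cannot be tied to the keratin signal. At 72 h 14 were tested, of which Ccl7, Has1 and Pdgfra were called higher and Clec3b and Dpt lower, where 3.27% of all genes were called higher and 9.57% lower. Ccl7, a further monocyte chemokine, was at 89.4 ± 9.87 against 45.8 ± 17.3 FPKM (log2 change 1.02, limma adjusted p = 0.0359), and Dpt, a matrix protein gene, was at 88.8 ± 45.0 against 246 ± 57.6 FPKM (-1.61, 0.0428).

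The genes whose pattern over the 24 libraries was most like that of each ligand were taken by Pearson's r of log2(FPKM + 0.5) among 14452 genes. These values describe libraries that share model, replicate number and time, and they carry no test. For Il6 they were Pim1 (r = 0.96), a kinase gene in the list of STAT3 targets, Has1 (0.93) and Serpina3i (0.93). For Lif they were Cxadr (0.90), Tnfaip3 (0.90), an inhibitor of NF-kB, and Il6 itself (0.88). For Il11 they were Nab2, Serinc2 and Tmem59l (0.86 each). For Clcf1 the highest values were 0.63 (Il10rb), 0.61 (Gm5637) and 0.60 (Gm20430), at levels that rest on at most 23 fragments of Clcf1.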

How the data were processed

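PSC RNA of 24 libraries was measured by paired-end, poly(A)-selected RNA-Seq. Per the labels and the study's methods, the authors called bases with CASAVA, aligned reads to GRCm38 with HISAT2 2.0.5, counted fragments per gene with featureCounts 1.5.0-p3 at default settings, in which strand is not used, and deposited FPKM values, scaled to each library's total and not further between libraries. The submitters' notes also name DESeq2 1.20.0. For the annotation used, no release is named in these sources, and genes were named by GENCODE M21. Dividing by the mean transcript length gave whole fragments for 96.4% of low values (within 0.01 fragments), and totals per library were recovered from these. Such counting cannot separate Stat3 and Il6ra from short antisense overlaps, or Clcf1 from an overlapping gene.

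Genes with FPKM above 1 in at least 3 libraries of a fit were tested with limma 3.58.1 (R 4.3.3) on log2(FPKM + 0.5) with an intensity trend, 2-sided, with Benjamini-Hochberg adjustment over all genes tested and a threshold of 0.05. Fold changes on this scale understate changes of low genes. Each fit held 6 libraries for a comparison of groups, 12 for a difference between times and 24 for a difference between models. The study calls its replicates biological. Whether replicate numbers pair libraries was read from the data (in the standard model every pair correlated above 0.1, in the inverse model not). The test was checked on simulated data drawn without an effect shared by same-numbered libraries, so that check does not cover the correlated standard libraries. Alternatives were 2 other pseudocounts, 2 other filters, scaling by the median of gene ratios, no trend, a replicate block, voom on recovered fragments, all libraries in the fit and leaving out each library. Genes named beyond the 10 are those of the lists with an adjusted p under 0.05 in a co-culture comparison, at most 8 per list by size of change, and the 3 most like each ligand. Others named (Krt8, Krt19, Il1rn, Il1r1, Il11ra1, Adam10 and marker genes) were chosen after their values were seen. The members, lists and tests were chosen with earlier results of these data known. Some genes that the naming rule would include, and the lists of other ligands and of JAK kinases and other STAT factors, are not reported here.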

Additional observations from a re-analysis of the deposited data

How the results depend on the processing

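The log2 changes counted here cover all tested members in the inverse model (co-culture against control, and controls over time). For standard co-culture they cover only Il6 and Osmr, and for the differences between models and between times in the inverse model only some members. Changes of the standard model between times are not among them. Within this set, 694 of 713 values computed under alternatives kept their direction, and 622 kept direction and side of the threshold. Member calls of the inverse model were the least stable. At 24 h the 2 calls became 1 under median-ratio scaling and 0 with no filter, with no trend, with the replicate block and with all 24 libraries in the fit. At 72 h the 3 calls became 1 with a pseudocount of 0.1 and with the replicate block, and 0 with no filter, with no trend and with all 24 libraries. In inverse controls over time, 3 calls became 5 with voom and 0 with all 24 libraries. The causes were not tested. Leaving out 1 library gave 0 to 1, 0 to 3 and 2 to 4 calls in these comparisons. Under median-ratio scaling, Stat3 and Socs3 in the inverse model at 72 h turned to 0.109 and 0.031.

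Within the same set, which leaves out the members other than Il6 and Osmr in standard co-culture, some signs turned when 1 library was left out. On the log2 scale these were Il6 in the standard model at 24 h (-0.401 to 1.977), Il6st in the inverse model at 24 h (-0.126 to 0.017), Stat3 (-0.168 to 0.103) and Socs3 (-0.375 to 0.322) in the inverse model at 72 h, and Il6 in inverse controls over time (-0.168 to 0.822). The same held for the difference between models of Il6 (-0.783 to 1.595) and Osmr (-0.167 to 0.447) at 24 h and of Il6 at 72 h (-0.498 to 1.458), and for Il6 between times in the inverse model (-0.053 to 0.937). Adjusted p over the alternatives ran from 0.0104 to 0.881 for Il6 and 0.0175 to 0.671 for Osmr at 24 h, and at 72 h from 0.0254 to 0.36 for Il6, 0.00899 to 0.278 for Lif, 0.0366 to 0.146 for Il11 and 0.0181 to 0.144 for Lifr. In the inverse model, same-numbered libraries shared only a number (correlations -0.171 to 0.148), and with the block the adjusted p at 72 h was 0.0292 for Il6, 0.0697 for Lif and 0.0506 for Il11. Depth limits Il11 (6 to 135 fragments) and leaves Clcf1 untested.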
